A study of Mus musculus with 11 samples.

Results

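The genes described here build the machinery of cell division in the mouse liver. They are 48 genes chosen by name and role, 24 of DNA replication and 24 of mitosis, out of 22911 genes that the array probes name through a RefSeq accession. The rule uses names and roles and no measured value, but the list was drawn up with earlier results of these data known. The livers came from C57Bl6/J male mice, 8 weeks old at injection, that received adeno-associated virus of serotype 8 (AAV8) and were examined on day 5 after an intraperitoneal injection. The vectors expressed green fluorescent protein (GFP) or the intracellular domain of Notch1 (NICD1) or Notch2 (NICD2), the part of each receptor that enters the nucleus and switches on target genes. All 4 groups received 6e+11 viral genomes (vg) in total per mouse. The GFP group received 6e+11 vg of AAV8-GFP. The NICD1 and NICD2 groups each received 3e+11 vg of their own vector with 3e+11 vg of AAV8-GFP, and the NICD1&2 group received 3e+11 vg of each NICD vector and no AAV8-GFP. Gene expression was measured on 11 Agilent 1-colour arrays, 3 each for GFP, NICD1 and NICD2 and 2 for NICD1&2. The methods describe experiments as repeated in several mice of each group, but neither they nor the labels tie an array to an animal. If the arrays were not separate animals, the p-values measure only the spread between these samples. The vectors carried the CMV promoter, which is not restricted to hepatocytes, and the RNA was that of liver tissue. In such bulk samples, fewer dividing cells and less RNA per cell cannot be told apart.

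A dividing cell uses these genes in an order. Before S phase, the origin recognition complex, Cdc6 and Cdt1 load the Mcm2 to Mcm7 ring onto DNA. Cdc45 and the GINS complex then turn the ring into a working helicase, while ribonucleotide reductase and thymidylate synthase supply the building blocks and Pcna, the sliding clamp, holds the polymerases in place. In mitosis, kinases such as Plk1 and the Aurora kinases, kinesin motors, centromere proteins and the kinetochore complex sort the chromosomes. The transcription of the replication genes is known to depend on E2F factors, and that of the mitosis genes on the MuvB complex with B-Myb and Foxm1. The adult liver is largely quiescent and divides again after loss of tissue. The study compared NICD1 with NICD2 for their effects on hepatocyte proliferation and cell death, and the values below show where the transcripts of the machinery itself stood.

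The 48 genes were represented by 77 probes. A gene was counted as detected on an array when the scanner software marked its brightest probe as well above background. Of the DNA replication genes, 20 to 23 of 24 were detected on each array, and 20 of the 23 tested replication genes were above background on all 11 arrays. For mitosis genes the counts were 12 to 18 of 24 per array, and 10 of the 19 tested were above background on all 11. The lowest count, 12, was on GFP 1, against 15 to 18 on the other 10 arrays. Bub1, Bub1b, Ttk and Tpx2, which serve the spindle checkpoint and spindle assembly, were above background on 0 of 11 arrays. Nuf2, a kinetochore subunit, and Orc1, a subunit of the origin recognition complex, were above background on 1 array each. These 6 genes were not tested, and their probes give only an upper bound on their levels. The other 42 genes, 23 of replication and 19 of mitosis, had at least 1 probe above background on 2 or more arrays, and for each the probe of highest mean was used.

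**Figure D1:**
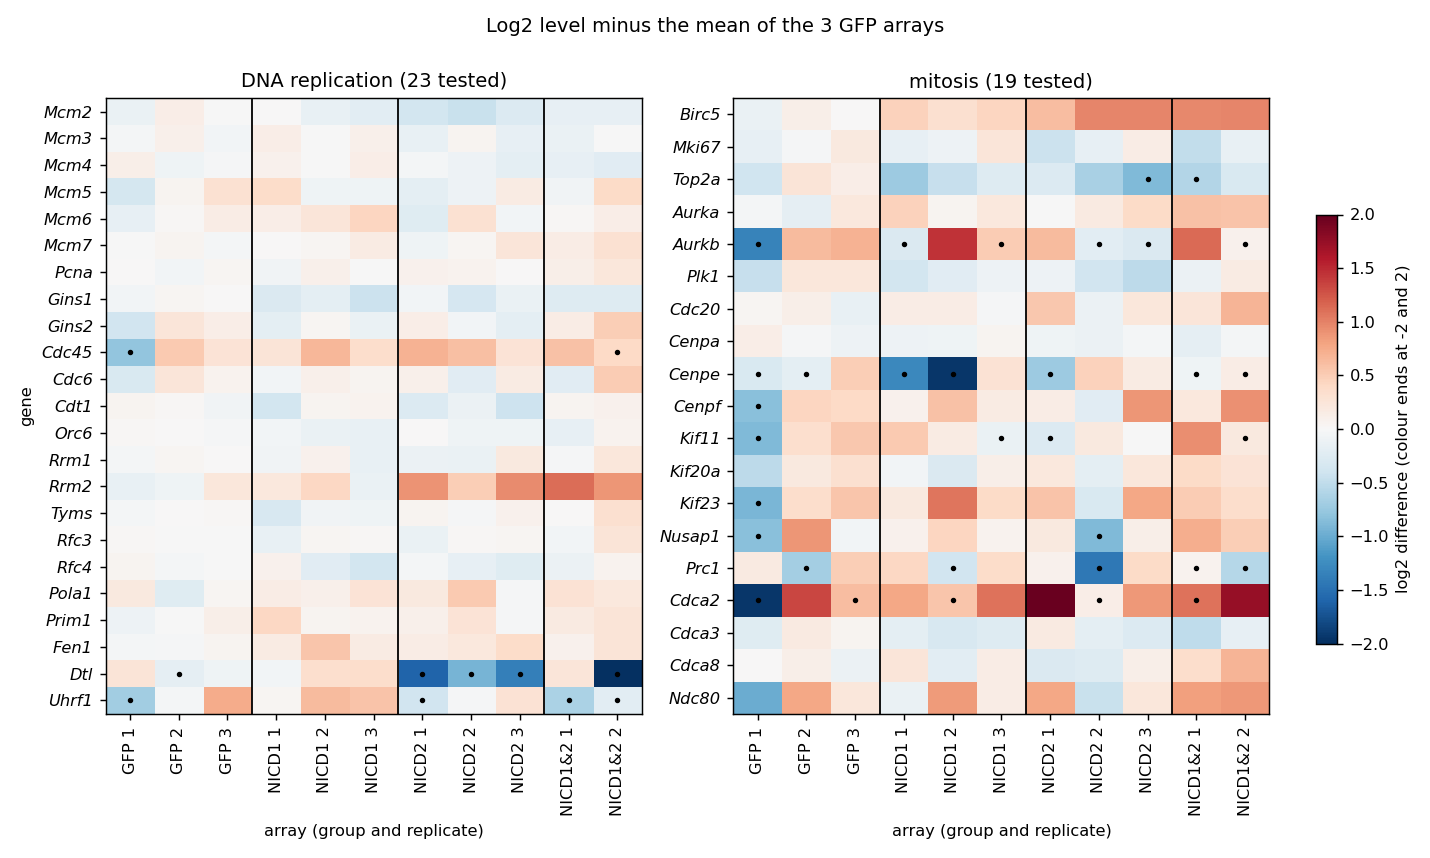
Log2 level of each of the 42 tested genes on each of the 11 arrays, less the mean of the 3 GFP arrays, with DNA replication genes on the left and mitosis genes on the right. Red is higher and blue is lower than GFP, colours end at -2 and 2, and a black dot marks an array on which the probe was not well above background. Birc5 and Rrm2 are red across NICD2 and NICD1&2 and carry no dots. Cdca2 also lies above the GFP mean on those arrays, but it has dots. Most replication rows are pale on all arrays, and most dots lie among the mitosis genes.

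The promoters of the members are shown because some motifs were more frequent in replication genes or in mitosis genes, a count independent of the arrays. No motif was present in every gene of a class. RefSeq windows of 300 bases, from 250 before to 50 after the start site (build GRCm38.p6), were matched for 41 of the 48 genes, 21 of replication and 20 of mitosis. No window was matched for Mcm4, Gins1, Gins2, Aurkb, Kif20a, Tpx2 and Cdca2. The cell cycle genes homology region (CHR, searched as TTTGAA on both strands), a site bound by MuvB complexes, was present in 15 of 20 mitosis genes and 3 of 21 replication genes, beside 20.2% of 27025 genes with a window. In 14 of the 15 it began within 50 bases of the start site, where 5.72% of all genes have one. The variant TTCGAA was present in 3 mitosis and 2 replication genes, beside 1.8% of all genes. The E2F core (searched as TTTNNCGC on both strands) was present in 12 of 21 replication genes and 0 of 20 mitosis genes, beside 5.93% of all genes. The CCAAT box, the site of the factor NF-Y, was common to both, in 16 of 21 and 16 of 20, beside 41.1% of all genes. These counts describe letters in a fixed window; no test was run on them.

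The stretches below run from position -150 to 30 around the start site, 5′ to 3′ on the gene's own strand, and capitals mark the motifs named above, on either strand. Birc5 and Rrm2 are shown because they had the largest differences among the genes above background on all arrays. Cdca8 and Cdc20 are examples of carriers of the CHR whose unadjusted p in NICD1&2 was under 0.05 (limma). Aurka was also such a carrier and is not shown. Dtl and Mcm6 are shown as carriers of the E2F core.
Birc5, chr11:117849087-117849266, plus strand: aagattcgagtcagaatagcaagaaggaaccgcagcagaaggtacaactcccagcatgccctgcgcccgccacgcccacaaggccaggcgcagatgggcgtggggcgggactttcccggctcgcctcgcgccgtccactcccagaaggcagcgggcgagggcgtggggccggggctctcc
Rrm2, chr12:24708104-24708283, plus strand: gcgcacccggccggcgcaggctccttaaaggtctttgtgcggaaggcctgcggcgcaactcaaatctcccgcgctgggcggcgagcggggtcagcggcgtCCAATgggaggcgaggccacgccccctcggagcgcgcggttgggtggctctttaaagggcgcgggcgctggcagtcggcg
Cdca8, chr4:124936888-124937067, minus strand: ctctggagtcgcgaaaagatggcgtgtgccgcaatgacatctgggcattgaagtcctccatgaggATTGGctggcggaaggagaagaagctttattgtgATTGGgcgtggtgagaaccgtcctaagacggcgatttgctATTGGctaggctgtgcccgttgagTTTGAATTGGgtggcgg
Cdc20, chr4:118437314-118437493, minus strand: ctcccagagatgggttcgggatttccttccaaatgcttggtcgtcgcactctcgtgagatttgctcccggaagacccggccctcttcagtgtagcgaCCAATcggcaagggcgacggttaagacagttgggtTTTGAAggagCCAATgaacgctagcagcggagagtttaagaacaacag
Dtl, chr1:191575515-191575694, minus strand: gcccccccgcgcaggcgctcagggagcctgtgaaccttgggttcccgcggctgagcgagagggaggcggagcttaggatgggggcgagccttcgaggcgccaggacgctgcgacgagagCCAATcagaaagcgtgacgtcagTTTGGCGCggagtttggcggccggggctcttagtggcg
Mcm6, chr1:128359676-128359855, minus strand: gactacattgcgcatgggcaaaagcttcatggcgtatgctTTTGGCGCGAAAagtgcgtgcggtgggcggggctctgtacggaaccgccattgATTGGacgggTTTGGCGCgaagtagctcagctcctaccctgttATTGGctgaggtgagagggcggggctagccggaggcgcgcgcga
Cdc20 has the arrangement most often described for mitotic promoters, a CHR beginning at position -18 from the start site with CCAAT boxes at -53 and -8. In Cdca8 the CHR begins at position 14 and shares its last letter with a CCAAT box on the other strand. Birc5 had none of the 4 motifs in its window and Rrm2 had only a CCAAT box, at position -50. A missing match says only that these letters are not in the window.

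**Figure D2:**
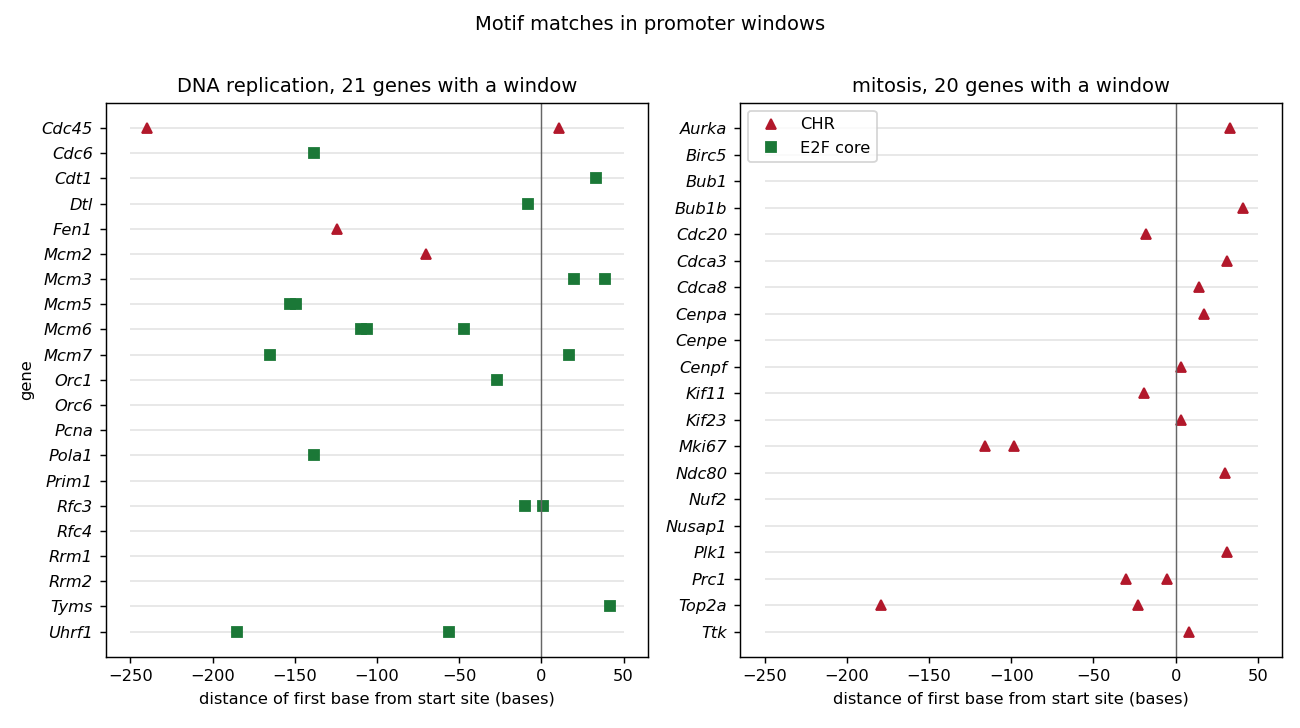
Distance in bases of the first base of each CHR (triangles) and E2F core (squares) from the start site, for the 21 replication genes (left) and 20 mitosis genes (right) with a promoter window; each grey line is the window of 1 gene. E2F cores lie in 12 replication windows and 0 mitosis windows, and CHR elements lie in 15 mitosis windows, 14 of them within 50 bases of the start.

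On the arrays, none of the 42 genes passed an adjusted p of 0.05 in any comparison (limma, Benjamini-Hochberg over all 36058 probes). Of all probes, 0.00832% passed in NICD1 against GFP, 0.0527% in NICD2, 0.0915% in NICD1&2 and 0.00277% in NICD1 against NICD2. The numbers of members at an unadjusted p under 0.05 were 3, 5, 5 and 4 of 42 in those comparisons, beside 5.48%, 6.79%, 14.8% and 3.74% of all probes. The study's definition of an altered gene, an unadjusted P under 0.15 with a fold change over 1.8, was met by 1 member in NICD1, 2 in NICD2, 4 in NICD1&2 and 2 in NICD1 against NICD2, beside 2.22%, 1.98%, 6.22% and 1.26% of all probes. Only the thresholds are the study's, which applied them to NICD1 and NICD2 against GFP. The P here came from limma on the kept probes, so these counts are not the study's own calls. With 42 members, each of these counts stands within a few genes of what the share of all probes corresponds to. The 3 comparisons against GFP use the same 3 GFP arrays, so a gene that stands out in several of them is not independent evidence.

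Birc5 was the member nearest to the threshold. It encodes survivin, a subunit of the chromosomal passenger complex that also restrains cell death. Levels are log2 values relative to the 75th percentile of each array. The 3 GFP arrays read -0.99, -0.75 and -0.85, the NICD1 arrays -0.41, -0.54 and -0.43, the NICD2 arrays -0.24, 0.11 and 0.11, and the NICD1&2 arrays 0.09 and 0.11. All 8 arrays with an NICD vector lay above all 3 GFP arrays, and the NICD1 arrays lay below all NICD2 and NICD1&2 arrays without overlap. In NICD2 the level was 1.81-fold that of GFP, a log2 difference of 0.86 (SE 0.12, 95% interval 0.59 to 1.13, adjusted p = 0.0663, limma). In NICD1&2 it was 1.96-fold, a difference of 0.97 (SE 0.13, interval 0.67 to 1.28, adjusted p = 0.0509). With the authors' deposited table in place of the scanner signals, which differ from them by at most 0.0089 at the members' probes, the NICD1&2 value came under 0.05, at 0.0488. In NICD1 the difference was 0.41 (SE 0.12, adjusted p = 0.769), and the difference of NICD1 from NICD2 was -0.45 (SE 0.12, interval -0.72 to -0.18, adjusted p = 1.0). NICD1&2 lay 0.56 above NICD1 and 0.11 above NICD2, with intervals of 0.26 to 0.87 and -0.19 to 0.42.

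The dimmer probe of Birc5, above background on 10 arrays, read -4.48, -4.12 and -4.46 in GFP, and between -4.09 and -3.08 on the 8 NICD arrays. It differed from GFP by 0.64 in NICD1, 0.77 in NICD2 and 1.04 in NICD1&2, none passing (adjusted p = 0.884, 0.589 and 0.209), and by -0.13 between NICD1 and NICD2. Both probes were thus higher in each NICD group than in GFP, and the order of NICD1 below NICD2 rested mainly on the brighter one. The arrays lay on 2 slides, each with all 4 groups. On slide 1 and slide 2, Birc5 was higher than GFP by 0.81 and 0.96 in NICD2 and by 0.97 and 0.97 in NICD1&2. The exact two-sided permutation test over arrays gave 0.1 for Birc5 in each comparison with GFP, the smallest p that 3 against 3 or 2 against 3 arrays allow.

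**Figure D3:**
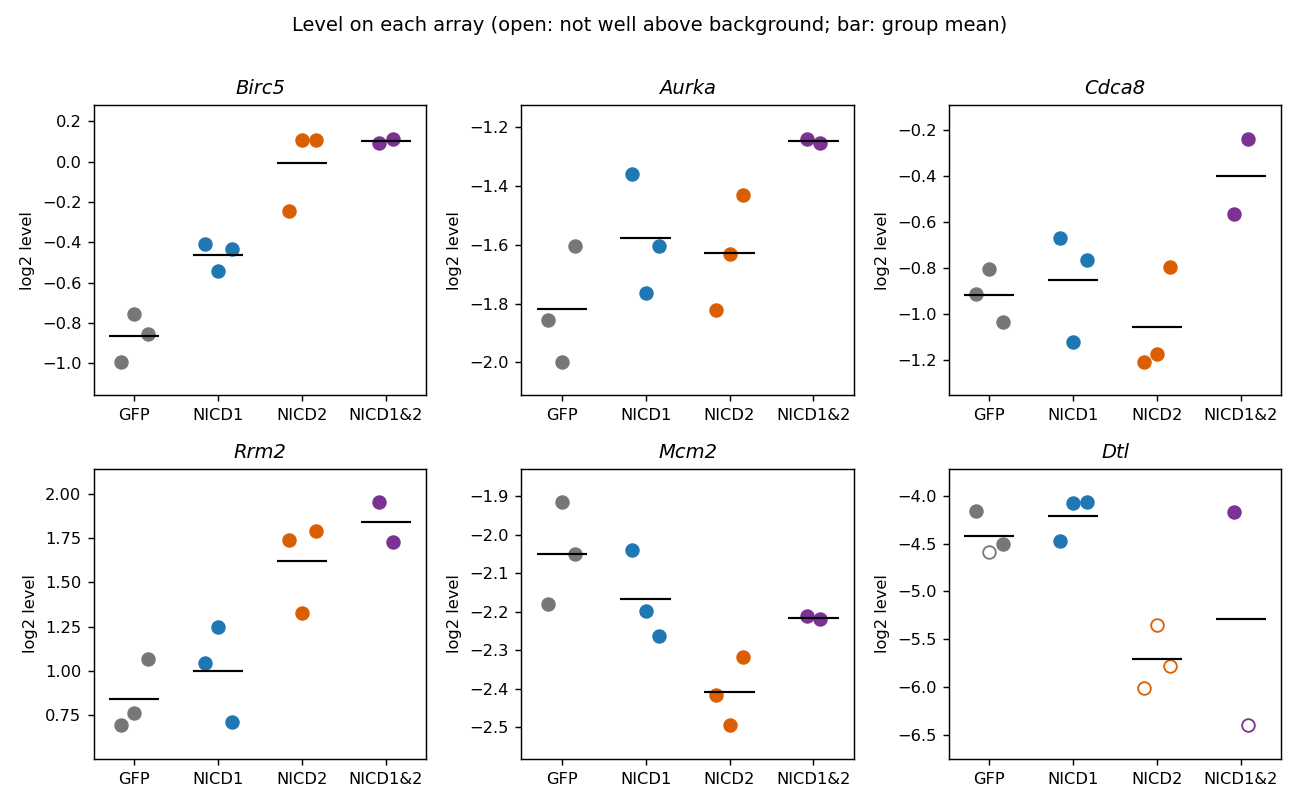
Log2 level of 6 members on each array by group; points are arrays, open points are arrays on which the probe was not well above background, and bars are group means. Birc5 is lowest in GFP and does not overlap between GFP, NICD1 and the other groups, Rrm2 is higher in NICD2 and NICD1&2 than in GFP, and the 3 NICD2 points of Dtl are all open.

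Among the genes of nucleotide supply, Rrm2 had the largest differences. It encodes the regulated small subunit of ribonucleotide reductase, the enzyme that makes deoxyribonucleotides. GFP arrays read 0.69, 0.76 and 1.07, NICD1 arrays 1.05, 1.25 and 0.71, NICD2 arrays 1.74, 1.33 and 1.79, and NICD1&2 arrays 1.95 and 1.73. NICD2 and NICD1&2 lay above GFP on every array, and NICD1 overlapped GFP. The log2 difference from GFP was 0.16 in NICD1 (SE 0.18), 0.78 in NICD2 (SE 0.18, adjusted p = 0.310) and 1.0 in NICD1&2 (SE 0.21, adjusted p = 0.132). The difference of NICD1 from NICD2 was -0.62 (interval -1.03 to -0.20, unadjusted p = 0.0084 from limma, adjusted p = 1.0). On the slides taken alone, the NICD2 difference was 0.81 and 0.72 and the NICD1&2 difference 1.22 and 0.66. Rrm1, the large subunit, ranged from -0.18 to 0.20 over all 11 arrays, with differences from GFP of -0.05, -0.02 and 0.10. Tyms, thymidylate synthase, differed from GFP by -0.16, 0.04 and 0.16 in NICD1, NICD2 and NICD1&2, with intervals that all included 0.

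By the brightest probe of each gene, the helicase ring gave small differences of mixed sign. Mcm2 read -2.18, -1.92 and -2.05 in GFP, -2.04, -2.20 and -2.26 in NICD1, -2.42, -2.50 and -2.32 in NICD2, and -2.21 and -2.22 in NICD1&2. The 3 NICD2 arrays were the lowest of all 11, with a difference from GFP of -0.36 (SE 0.11, interval -0.60 to -0.12, adjusted p = 0.474), and NICD1 exceeded NICD2 by 0.24. Mcm3, Mcm4, Mcm5, Mcm6 and Mcm7 differed from GFP by -0.20 to 0.26 over the 3 groups, and every one of those intervals included 0. Mcm6 read 1.08, 1.26 and 1.39 in GFP, 1.37, 1.48 and 1.67 in NICD1, 1.01, 1.55 and 1.19 in NICD2, and 1.27 and 1.38 in NICD1&2, and each NICD group overlapped GFP. It was at 0.26 in NICD1 (interval -0.09 to 0.62) and 0.01 in NICD2. Its dimmer probe, above background on 2 arrays, gave 1.14 in NICD1 (adjusted p = 0.902), -0.40 in NICD2 and 1.54 between NICD1 and NICD2 (adjusted p = 1.0). Mcm7 was at 0.23 in NICD1&2 (interval -0.04 to 0.50), where both arrays, at 2.14 and 2.29, lay above the GFP arrays at 1.98, 2.04 and 1.95. The NICD1 arrays read 1.99, 2.02 and 2.15 and the NICD2 arrays 1.90, 2.03 and 2.23, both overlapping GFP. The dimmer probe of Mcm7 gave 0.65, 0.55 and 0.45 in NICD1, NICD2 and NICD1&2 (adjusted p = 0.884, 0.736 and 0.438). Of the 6 ring subunits, only Mcm2 had an interval in NICD2 that left out 0; the interval of Mcm4 in that comparison, -0.32 to 0.10, overlapped it.

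Of the factors that start and extend forks, Gins1, a subunit of the GINS complex, read 0.58, 0.68 and 0.64 in GFP, 0.34, 0.44 and 0.20 in NICD1, 0.58, 0.30 and 0.51 in NICD2, and 0.37 and 0.38 in NICD1&2. It lay below GFP on all NICD1 and NICD1&2 arrays, with differences of -0.30 (SE 0.11, adjusted p = 0.841) and -0.26 (SE 0.12, adjusted p = 0.349), and its other probe differed from GFP by -0.34 and -0.32. Fen1, the nuclease that trims Okazaki fragments, read 0.97, 0.99 and 1.06 in GFP, 1.17, 1.57 and 1.17 in NICD1, 1.16, 1.21 and 1.38 in NICD2, and 1.09 and 1.26 in NICD1&2. All 8 NICD arrays lay above GFP, with differences of 0.30, 0.24 and 0.17 (adjusted p = 0.899, 0.806 and 0.562). Pcna was the steadiest member, with a pooled SD of 0.06 within groups and levels between 3.47 and 3.76. Its intervals against GFP were -0.18 to 0.21 in NICD1, -0.14 to 0.25 in NICD2 and -0.04 to 0.39 in NICD1&2. For the clamp, differences of more than 0.25 from GFP in the groups with 1 NICD vector lay outside these intervals. The licensing factors Cdc6, Cdt1 and Orc6, the clamp loader subunits Rfc3 and Rfc4 and the primase subunit Prim1 differed from GFP by -0.27 to 0.22, all with intervals that included 0. So did the intervals of Pola1, a subunit of the priming polymerase, at 0.17, 0.23 and 0.25, and of Gins2, at -0.09, -0.04 and 0.32. Cdc45, a helicase partner, was at 0.42, 0.53 and 0.49 in NICD1, NICD2 and NICD1&2 by its brightest probe, above background on 9 arrays, with intervals that included 0. Its other probe, above background on 10 arrays, was at 0.43, 0.32 and 1.05, and none passed (adjusted p = 0.885, 0.830 and 0.115).

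Dtl, which directs the destruction of Cdt1 during S phase, was dim. It read -4.15, -4.59 and -4.50 in GFP, -4.47, -4.08 and -4.07 in NICD1, -6.01, -5.35 and -5.78 in NICD2, and -4.17 and -6.40 in NICD1&2. The arrays with a signal well above background were 2 of 3 for GFP, 3 of 3 for NICD1, 0 of 3 for NICD2 and 1 of 2 for NICD1&2. With the lowest signals marked as above background in place of the dim values, the level in NICD2 was 1.61-fold lower than in NICD1. That figure is not a strict bound. On GFP 2, Dtl was not marked at -4.59, although the lowest marked signal of that array was -4.68. The measured difference between NICD1 and NICD2 did not pass (adjusted p = 1.0, limma). Against GFP, where GFP 2 was itself not above background, the measured difference of NICD2 was -1.30 (adjusted p = 0.635), and no such figure is given. In NICD1&2 the measured difference from GFP was -0.87 with both arrays and 0.25 without NICD1&2 2. Without NICD1&2 1 it was -1.99 and passed the threshold (adjusted p = 0.039, limma), but that value rests on NICD1&2 2 alone, which read -6.40 and was not above background; the lowest signal marked as above background on that array was -4.43, beside a GFP mean of -4.42. No direction in NICD1&2 can be read from these values. Uhrf1, which helps to maintain DNA methylation at forks, was above background on 2 of 3 GFP arrays, 3 of 3 NICD1 arrays, 2 of 3 NICD2 arrays and 0 of 2 NICD1&2 arrays. Its intervals against GFP included 0 in all 3 groups.

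Over the 23 tested replication genes, the median log2 difference from GFP was 0.06 in NICD1, -0.03 in NICD2 and 0.10 in NICD1&2, and 0.00 between NICD1 and NICD2. The medians over all probes were 0.01, 0.02, 0.12 and -0.00, so the replication list lay within 0.05 of all probes in each comparison. The SD of the list's median between arrays of a group was 0.06. Single arrays moved these values: the NICD1&2 median was 0.015 without NICD1&2 2 and 0.224 without NICD1&2 1, and the NICD2 median was 0.044 without GFP 3 and 0.030 without NICD2 1. The NICD1 median was 0.015 without GFP 1, 0.039 without NICD1 2 and 0.023 without NICD1 3. In NICD1&2 the shift of all probes, 0.12, fell to 0.01 after quantile normalization, and differences in that group stand relative to it. Members that did not overlap between the groups were counted too. In NICD1, 2 of 42 members were higher on every array than on any GFP array and 3 were lower, beside 6.98% and 5.44% of all probes. In NICD2, 3 were higher and 3 lower, beside 7.63% and 5.70%. In NICD1&2, 12 were higher and 3 lower, beside 24.0% and 10.4%, and between NICD1 and NICD2, 3 were higher and 3 lower, beside 4.20% and 5.06%. The 12 higher in NICD1&2 were Mcm7, Pcna, Cdt1, Rrm2, Pola1, Prim1 and Fen1 of replication and Birc5, Aurka, Cdc20, Cdca8 and Ndc80 of mitosis, and the 3 lower were Mcm2, Mcm4 and Gins1. NICD1&2 2 was the highest of the 11 arrays for 10 of 23 replication genes and 5 of 19 mitosis genes, beside 29.5% of all probes.

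The mitosis genes varied more between arrays of 1 group, with a median pooled SD of 0.30 against 0.15 for the replication genes and 0.22 for all probes. Among genes above background on all arrays the medians were 0.22 and 0.14, beside 0.17 for all such probes. Dim genes had the larger spread. Mitosis members above background on fewer than 11 arrays had a median SD of 0.58, and all such probes 0.60. Cenpa, the centromeric histone, had the lowest SD, 0.09, and Cdca2, a phosphatase-targeting subunit, the highest, 1.07.

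Of the mitotic kinases, Aurka, which matures centrosomes, read -1.86, -2.0 and -1.60 in GFP, -1.36, -1.76 and -1.60 in NICD1, -1.82, -1.63 and -1.43 in NICD2, and -1.24 and -1.26 in NICD1&2. Both NICD1&2 arrays lay above the other 9, 0.57 over GFP (SE 0.17, interval 0.19 to 0.96, adjusted p = 0.224), while NICD1 and NICD2 overlapped GFP. Plk1, which drives entry into mitosis, read -3.88, -3.19 and -3.20 in GFP, -3.79, -3.66 and -3.52 in NICD1, -3.52, -3.81 and -3.95 in NICD2, and -3.55 and -3.26 in NICD1&2. Each NICD group overlapped GFP, with differences of -0.23, -0.33 and 0.02. Aurkb was above background on 5 of 11 arrays, and its interval against GFP in NICD1 ran from -0.87 to 1.98.

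Cdca8, borealin, binds Birc5 in the chromosomal passenger complex. It read -0.91, -0.81 and -1.04 in GFP, -0.67, -1.12 and -0.77 in NICD1, -1.21, -1.17 and -0.80 in NICD2, and -0.57 and -0.24 in NICD1&2. NICD1&2 again held the 2 highest arrays, 0.52 above GFP (SE 0.19, interval 0.10 to 0.94, adjusted p = 0.275). The other probe of Cdca8 gave 0.93 in the same comparison (adjusted p = 0.198) and put the same 2 arrays highest. In NICD2, where Birc5 was at 0.86, Cdca8 was at -0.14 with an interval of -0.52 to 0.24. Cdc20, the activator of the anaphase-promoting complex, was 0.47 above GFP in NICD1&2 by its brighter probe (unadjusted p = 0.045 from limma, adjusted p = 0.329), but -0.18 by the other, so its direction was not settled. It was named after its values were seen.

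Top2a, the topoisomerase that untangles sister chromatids, had negative differences in all 3 groups. It read -4.03, -3.36 and -3.49 in GFP, -4.35, -4.08 and -3.89 in NICD1, -3.90, -4.27 and -4.50 in NICD2, and -4.21 and -3.93 in NICD1&2. The differences from GFP were -0.48, -0.60 and -0.44, with adjusted p of 0.903, 0.645 and 0.411, and the groups overlapped through GFP 1. Mki67, the antigen used to stain dividing cells, read between -3.75 and -3.03 on all 11 arrays, with intervals of -0.43 to 0.41 in NICD1, -0.56 to 0.27 in NICD2 and -0.78 to 0.15 in NICD1&2. Cenpe, a kinetochore motor, read -4.79, -4.68 and -3.99 in GFP, -5.78, -6.44 and -4.19 in NICD1, -5.21, -4.03 and -4.33 in NICD2, and -4.57 and -4.34 in NICD1&2. It met the study's definition as lower in NICD1 (-0.98, adjusted p = 0.904), but was above background on 4 of 11 arrays and on 1 of 3 in NICD1. The difference was -1.62 without NICD1 3 and -0.50 without NICD1 2. Against NICD2 it also met the definition (-0.95, adjusted p = 1.0), with -1.59 and -0.47 without the same arrays. Cdca2 read -7.15, -3.88 and -4.59 in GFP, -4.44, -4.65 and -4.12 in NICD1, -3.23, -5.08 and -4.34 in NICD2, and -4.12 and -3.46 in NICD1&2. It met the definition as higher in NICD1&2 (1.42, adjusted p = 0.439), where the difference was 0.45 without GFP 1, and the groups overlapped. It was above background on 1 of 3 GFP arrays and 1 of 2 NICD1&2 arrays, and GFP 1 lay below the lowest signal marked as above background on that array, -5.15, so 1.42 is a difference between largely unmeasured levels.

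The motors and the remaining kinetochore and cytokinesis genes had intervals that included 0 in all 3 groups. The mitotic kinesins Kif11, Kif20a and Kif23 differed from GFP by -0.08 to 0.56. Ndc80, a kinetochore subunit that holds microtubules, was at 0.29, 0.19 and 0.84, and its NICD1&2 interval ran from -0.35 to 2.03. The centromere protein Cenpf was at 0.28, 0.27 and 0.56, and Cenpa at -0.05, -0.08 and -0.11 with intervals inside -0.36 to 0.18. The spindle proteins Nusap1 and Prc1 lay between -0.32 and 0.61, and Cdca3, an adaptor for protein destruction at mitotic entry, was at -0.26, -0.10 and -0.34.

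**Figure D4:**
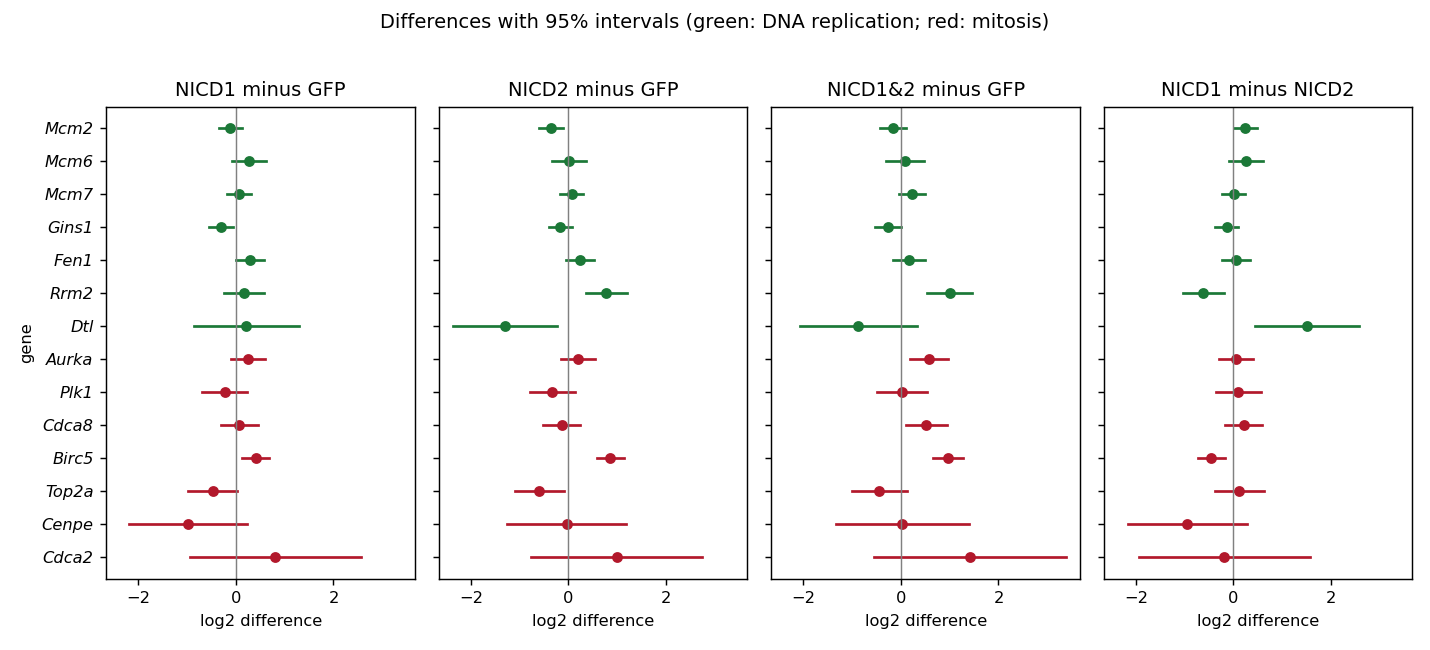
Log2 differences with 95% intervals from limma for the 14 members chosen by rule, DNA replication genes in green and mitosis genes in red, in 4 comparisons. The intervals of Birc5 leave out 0 in all 4 panels and those of Rrm2 in all but NICD1 minus GFP, while Cenpe, Cdca2 and Dtl, which were dim, have the widest intervals.

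As a list, the 19 tested mitosis genes had a median difference from GFP of 0.14 in NICD1, -0.03 in NICD2 and 0.47 in NICD1&2, beside 0.01, 0.02 and 0.12 for all probes. The SD of the mitosis list's median between arrays of a group was 0.22. The NICD1 median was 0.07 and -0.03 on the slides taken alone, and 0.075 under quantile normalization, 0.022 under normexp and 0.027 with a filter of all 11 arrays. Between NICD1 and NICD2 it was 0.10, with -0.07 and -0.05 on the slides taken alone and -0.10 without NICD2 2. The NICD2 median against GFP was -0.19 without GFP 1, 0.14 without GFP 2, 0.21 without GFP 3 and 0.17 without NICD2 2. The median of the list was -0.40 on GFP 1, 0.20 on GFP 2 and 0.22 on GFP 3, relative to the mean of the 3. On the other arrays it lay between -0.20 and 0.35. GFP 1 was the lowest of the 11 arrays for 8 of 19 mitosis genes and 8 of 23 replication genes, beside 18.5% of all probes. Without GFP 1 the mitosis median became -0.14 in NICD1 and 0.07 in NICD1&2, where all probes were at 0.08. On slide 1 the NICD1&2 median was 0.41 and on slide 2, which holds GFP 3 and NICD1&2 2 for this comparison, it was -0.05. The higher median in NICD1&2 against GFP was thus present with GFP 1 and absent without it. In comparisons that use no GFP array, the mitosis median of NICD1&2 was 0.33 against NICD1 and 0.25 against NICD2. All probes had 0.10 and 0.10 there. Of the 19 genes, 14 were higher and 5 lower against NICD1, and 16 were higher and 3 lower against NICD2. In NICD1&2 against GFP, Birc5, at 0.97, was at 0.91 without GFP 1, and Aurka and Cdca8 were at 0.55 and 0.52.

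Setting NICD1&2 against each single vector, again none of the 42 genes passed (0.0139% of all probes against NICD1, 0.00277% against NICD2). At an unadjusted p under 0.05 there were 5 members against NICD1 and 1 against NICD2, beside 12.4% and 8.90% of all probes. Rrm2 was 0.84 higher in NICD1&2 than in NICD1 (interval 0.37 to 1.30, adjusted p = 0.327) and 0.22 higher than in NICD2 (interval -0.24 to 0.69). Cdca8 was 0.45 higher than in NICD1 (interval 0.03 to 0.87, adjusted p = 0.387) and 0.66 higher than in NICD2 (interval 0.24 to 1.08, adjusted p = 0.561). In the interaction term, which asks whether adding NICD2 shifts a gene differently with and without NICD1, Cdca8 was at 0.59 (interval 0.03 to 1.16, adjusted p = 0.709), and Birc5 and Rrm2 were at -0.29 and 0.06 with intervals that included 0. No member and no other probe passed for that term (0 of 36058), and 1 member had an unadjusted p under 0.05 beside 7.03% of all probes.

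**Figure D5:**
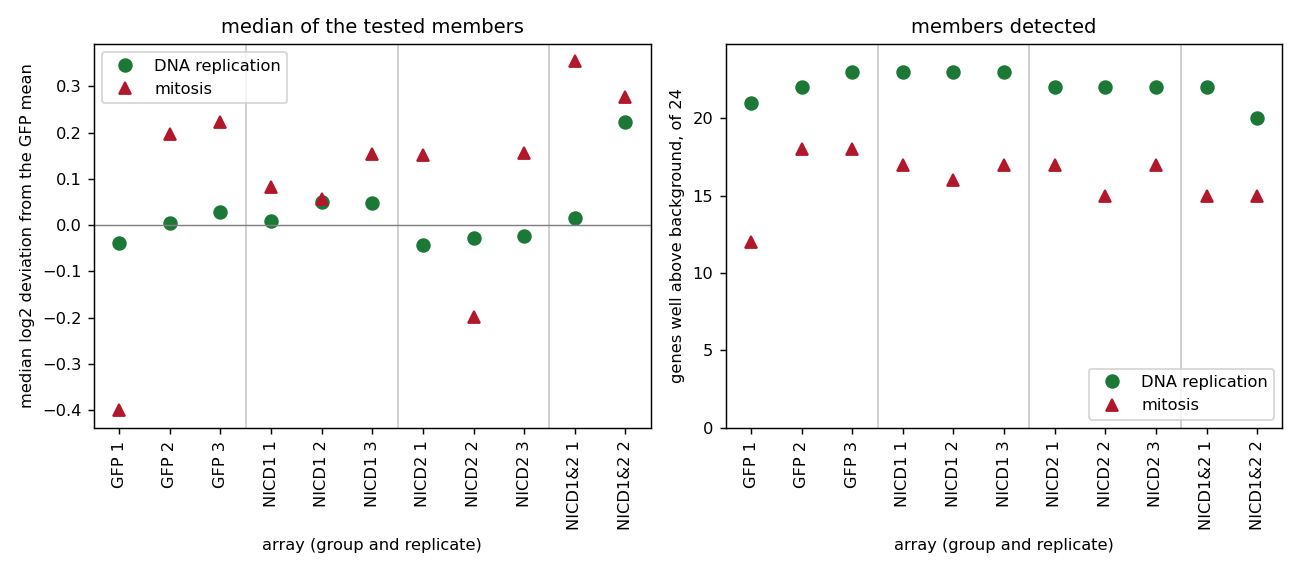
Left, median over the tested members of the log2 deviation from the mean of the 3 GFP arrays, for each array. Right, number of the 24 members of each list that were well above background. The replication medians stay between -0.04 and 0.22, the mitosis median is lowest on GFP 1 at -0.40, and GFP 1 also has the fewest mitosis genes detected, 12.

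Other genes of the same pathways were counted in fixed lists. Of 44 other replication genes, 39 were tested and none was called by limma, with medians of -0.07, -0.00 and 0.07 in NICD1, NICD2 and NICD1&2 and with 1, 4 and 12 genes at an unadjusted p under 0.05, where 5.48%, 6.79% and 14.8% of all probes had one. Of 57 other mitosis genes, 45 were tested, with medians of 0.03, -0.04 and 0.18 and with 3, 2 and 10 at an unadjusted p under 0.05, and 1 was called, Ckap2 in NICD1&2. Ckap2, a spindle protein, read -2.24, -2.01 and -1.54 in GFP, -2.18, -1.72 and -2.12 in NICD1, -1.28, -0.89 and -1.06 in NICD2, and -0.30 and 0.31 in NICD1&2. NICD1 overlapped GFP, and NICD2 and then NICD1&2 lay above both without overlap. The NICD1&2 difference was 1.94 (SE 0.26, adjusted p = 0.0439). It stayed between 0.94 and 2.24 over the settings tried, but the adjusted p ranged from 0.0131 to 0.366 and was under 0.05 in 11 of 23, and without NICD1&2 2 it was 0.307. In NICD2, Ckap2 was at 0.85 (adjusted p = 0.411), and the difference of NICD1 from NICD2 was -0.93. Gtse1 and Psrc1, also of the mitosis list, had differences of -1.09 and -1.28 in NICD1 against NICD2 (adjusted p = 0.859 and 1.0). In the same comparison Aspm and Kif15, a spindle protein and a kinesin above background on 3 and 2 arrays, had differences of 0.88 and 0.95 (adjusted p = 1.0 for both), and 28 of the 45 genes were higher and 17 lower, with a median of 0.08. At an unadjusted p under 0.05 there were 8 of them, beside 3.74% of all probes, and 2 higher and 3 lower met the study's definition, beside 1.26%. Asf1b, a histone chaperone of the replication list, was at 0.93 in NICD1&2 (adjusted p = 0.235) and Spc25, a kinetochore subunit, at 0.88 (adjusted p = 0.154). All 21 genes of the E2F, Myb-MuvB and Foxm1 regulators were tested and none was called by limma, with medians of 0.03, -0.01 and 0.23 and with 2, 0 and 4 at an unadjusted p under 0.05, to be read against the same 5.48%, 6.79% and 14.8% of all probes.

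The livers carried other cells whose markers were measured on the same arrays. The 8 hepatocyte markers were above background on all arrays, with a summed linear level of 3219 to 4028 times the 75th percentile. The bile duct list summed to 7.97 to 10.9 in GFP, 23.5 to 31.7 in NICD1, 23.3 to 31.5 in NICD2 and 33.4 to 41.1 in NICD1&2. Spp1, osteopontin, made up most of each sum. It was 1.71 higher than GFP in NICD1 (adjusted p = 0.0988), 1.81 higher in NICD2 (adjusted p = 0.0276) and 2.23 higher in NICD1&2 (adjusted p = 0.0114). The list as a whole moved less. Over its 6 markers, the median log2 deviation from the GFP mean was -0.10 to 0.10 on the GFP arrays. It was 0.17 to 0.59 on the NICD1 arrays, 0.12 to 0.62 on the NICD2 arrays, and 0.44 and 0.72 on the NICD1&2 arrays. All 10 Kupffer and monocyte markers were lower than GFP in NICD1 and 9 of 10 in NICD2, with medians of -0.22 and -0.21, and 9 of 11 lymphocyte markers were lower in each. In NICD1&2 the medians against GFP were -0.02 for Kupffer and monocyte markers, with 4 higher and 6 lower, and -0.01 for lymphocyte markers, with 5 higher and 6 lower. All 10 Kupffer and monocyte markers were higher in NICD1&2 than in NICD1 and than in NICD2, with medians of 0.28 and 0.17 where all probes had 0.10 and 0.10, and 9 of 11 lymphocyte markers were higher in each comparison. None of these markers was called by limma. At an unadjusted p under 0.05 there was 1 Kupffer and monocyte marker in NICD1 and in NICD2 against GFP, 0 in NICD1&2 against GFP, and 3 and 2 in NICD1&2 against NICD1 and NICD2; for lymphocyte markers there were 0 in each group against GFP and 2 and 1 in the last comparisons. Of all probes, 12.4% and 8.90% had such a p in NICD1&2 against NICD1 and NICD2. GFP 2 alone had a Kupffer and monocyte median of -0.25 relative to the GFP mean and a summed level of 62.0, within the range of the NICD1 arrays (61.2 to 69.5), while GFP 1 and GFP 3 summed to 86.1 and 86.4. Of 7 stellate cell markers, 5, 6 and 6 were higher than GFP in NICD1, NICD2 and NICD1&2, with medians of 0.10, 0.22 and 0.06 and with 0, 1 and 1 at an unadjusted p under 0.05. The 7 markers of sinusoidal endothelium had medians of -0.00, 0.02 and -0.10 and 0, 1 and 1 at that p, and Lyve1, a hyaluronan receptor, met the study's definition in NICD2 (0.86, adjusted p = 0.286) and NICD1&2 (0.93, adjusted p = 0.162). The red blood cell list summed to 526 on NICD1&2 2 and to 265 to 394 on the other arrays. Leukocytes and red cell precursors can divide, and the part of these cells in the members' values was not tested. The probes of Notch1 and Notch2 differed from GFP by -0.37 to 0.29 and none was called; whether they lie in the expressed domains was not known, so they do not check the labels. Of the Notch targets, Hes1 was at -0.03 in NICD1, 1.64 in NICD2 and 1.36 in NICD1&2 (adjusted p = 0.993, 0.421 and 0.282), and Hey1 was at 0.11, 0.29 and 0.71 (adjusted p = 0.944, 0.802 and 0.168).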

How the data were processed

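RNA of mouse liver was hybridised to 11 Agilent arrays in 1 colour. The authors deposited scanner files with background-subtracted signal intensities and flags, and a table of log2 values scaled to the 75th percentile of each array. Here log2 of the processed intensity less the 75th percentile of each array was used, and the deposited log2 table served as an alternative. Control spots were left out and spots of a probe averaged. Of 56605 probes, 36058 were well above background on at least 2 arrays. The number of arrays limits the precision; 57.0% to 62.0% of spots per array were above background. Groups came from the labels. Means of the 4 groups were fitted with limma 3.58.1 in R 4.3.3 (lmFit, eBayes), with Benjamini-Hochberg adjustment over all kept probes. Probes were named through RefSeq accessions, and the brightest probe stood for a gene. Members, lists and tests were chosen with earlier results of these data known. Values on every array were given for members meeting the study's definition in 4 comparisons and for the 3 replication and 3 mitosis members of lowest p against GFP in each group; other genes were named from the 5 of lowest p meeting that definition in each list and comparison. The fit was tested on simulated data. The alternatives were other scalings, background correction by normexp (offset 50), filters, the mean of probes, fits of the compared groups alone, array weights, slide and replicate blocks, a stricter definition and leaving out each array. Same-numbered arrays were not paired: the correlations of their deviations from the group means ran from -0.41 to 0.17 over 15 pairs.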

Additional observations from a re-analysis of the deposited data

How the results depend on the processing

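Over 22 alternatives and 29 results of single members, 619 values kept direction and side of the threshold, 9 passed the threshold that the reported value missed, and 1 reversed: Dtl in NICD1&2 against GFP was at 0.25 without NICD1&2 2 and at -1.99 without NICD1&2 1, values that turn on a signal not above background. Calls at an adjusted p of 0.05 became 1, Birc5, in NICD2 and in NICD1&2 under quantile normalization, normexp and a filter of all 11 arrays, and in NICD1&2 also with the deposited table. By the study's definition, where the counts were 1, 2, 4 and 2 in NICD1, NICD2, NICD1&2 and NICD1 against NICD2, they became 0, 1, 0 and 1 at P under 0.05 with a fold over 2, 0, 0, 1 and 0 under normexp, and 0, 1, 2 and 0 under the filter of all 11 arrays. Fitting the compared groups alone gave 0 in NICD1, 2 in NICD1&2 and 1 in NICD1 against NICD2; array weights gave 1 in NICD2 and 2 in NICD1&2; the slide block gave 2 in NICD1&2; scaling on detected probes and the mean of probes each gave 1 in NICD2. With the replicate block the count in NICD1&2 was 2, and the block changed no other call; the arrays share only a number. The mitosis median in NICD1&2 was 0.20 under quantile normalization and 0.040 under normexp, and the replication median 0.023 with scaling on detected probes and 0.0034 under normexp. The causes of these changes were not tested. Leaving out 1 array at a time, the definition counts ranged over 0 to 2 in NICD1 (2 without GFP 2; 0 without GFP 3, NICD1 1 or NICD1 2), 1 to 3 in NICD2 (1 without GFP 1 or NICD2 3), 2 to 5 in NICD1&2 (2 without GFP 1, NICD2 3 or any NICD1 array) and 1 to 2 in NICD1 against NICD2 (1 without NICD1 1, NICD1 2, NICD2 2 or NICD2 3). Calls ranged over 0 to 1 in NICD1&2 (1 without NICD2 1, which was Birc5, or without NICD1&2 1, which was Dtl on 1 dim array) and 0 to 1 in NICD1&2 against NICD1 (1 without NICD1&2 1). Replication medians ranged over 0.015 to 0.064 in NICD1, -0.052 to 0.044 in NICD2 (highest without GFP 3), 0.015 to 0.224 in NICD1&2 (lowest without NICD1&2 2, highest without NICD1&2 1) and -0.015 to 0.081 in NICD1 against NICD2 (highest without NICD2 3). Mitosis medians ranged over -0.14 to 0.17 in NICD1, -0.19 to 0.21 in NICD2 (highest without GFP 3), 0.068 to 0.52 in NICD1&2 and -0.10 to 0.12 in NICD1 against NICD2, with the lowest values in NICD1 and NICD1&2 without GFP 1. The 6 members above background on 0 or 1 array have only an upper bound.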
